A study of Mus musculus with 16 samples.

Results

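The response of D10 T cells to 6 h of CD3/CD28 stimulation, without any inhibitor, was measured on 4 of the 16 arrays of the series. D10 is a mouse Th2 T cell line, grown in medium with recombinant human interleukin (IL)-2, and all results therefore come from 1 line of cells that was already exposed to a T cell growth factor. The members were chosen by their titles alone: 2 arrays were labelled as 6 h after stimulation and 2 as 0 h, both without Akti1/2, an inhibitor of the kinases Akt1 and Akt2. The labels and the study's methods call these control cells untreated, whereas elsewhere the study describes pre-incubation with the solvent of the inhibitor. Stimulation was with biotinylated antibodies to mouse CD3 and CD28 that were cross-linked with streptavidin, and the 0 h cells were left unstimulated. Total RNA was measured on Illumina MouseRef-8 bead arrays. The other arrays hold control cells at 2 h and 12 h, used below for comparison, and cells given 10 μM Akti1/2. The latter enter the joint normalization, the choice of genes tested and the estimate of error, but no comparison. Whether the 2 samples of each group came from separate cultures is not given in the sources used here, so the p-values measure the spread between these samples, which may be technical.

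Antibodies to CD3 engage the signalling chains of the T cell receptor, and antibodies to CD28 supply the costimulatory signal that T cells otherwise receive from antigen-presenting cells. Together these signals open calcium channels and activate kinase cascades that bring NFAT, AP-1 and NF-κB transcription factors to the promoters of cytokine and survival genes. Th2 cells are the helper T cells known for secreting IL-4, IL-5 and IL-13, the cytokines of allergy and of defence against worms.

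Levels are given on the log2 scale after background correction and quantile normalization, and a gene was taken to be above background when its intensity exceeded nearly all of the 798 negative control probes. Over the 4 arrays the median intensity of 18138 genes was between 136.5 and 148.6, and between 6398 and 6641 genes were above background. Replicate arrays correlated with r = 0.994 at 0 h and 0.9918 at 6 h, and a gene differed between replicates by a median of 0.125 and 0.146 on the log2 scale. All 12 T cell and Th2 markers on the array were above background, 11 of them on all 4 arrays and Cd4 on 3, and their summed linear levels ran from 29257 to 29626 at 0 h and from 40596 to 43873 at 6 h. None of the markers of CD8 T cells (2), of Th1, Th17 and regulatory T cells (5), of B cells (6), of macrophages and dendritic cells (8) or of NK cells (3) was above background. The exceptions among other cell types were the granulocyte gene Mpo (7.34 and 7.68 at 0 h, 6.96 and 7.10 at 6 h), 1 of 6 granulocyte and mast cell markers with a list sum of 282 to 322 at 0 h and 245 to 257 at 6 h, and the haemoglobin gene Hba-a1 (10.57 and 10.60 at 0 h, 10.09 and 10.10 at 6 h), 1 of 3 erythroid markers with a sum of 1577 to 1608 and then 1147 to 1153. Krt8, 1 of 5 fibroblast and epithelial markers, was above background on 2 arrays. The part of these markers in the results was not tested. In bulk samples such as these, fewer cells of a type and less RNA per cell cannot be told apart.

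After 6 h of stimulation, the levels of cytokine, chemokine and NF-κB pathway genes rose by up to 94.7-fold where both groups could be measured, while many genes of sterol synthesis, glycolysis and DNA replication fell by smaller steps. Of the 7395 genes that could be tested, 2038 (27.6%) differed between 6 h and 0 h at a limma adjusted p under 0.05, 898 of them higher (12.1%) and 1140 lower (15.4%). The falls were more numerous but smaller: 202 genes rose and 178 fell by more than 2-fold, and 64 rose and 6 fell by more than 4-fold. The median change over all genes tested was -0.02 on the log2 scale. Scaling all arrays to 1 mean instead moved this median to -0.09 and the share of higher genes among the called from 44.1% to 30.6%. With any 1 of the 4 arrays left out the count fell, to 1202 without replicate 1 at 0 h, 1242 without replicate 2 at 0 h, 1280 without replicate 1 at 6 h and 1416 without replicate 2 at 6 h. The plot of change against level shows the asymmetry.

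**Figure D1:**
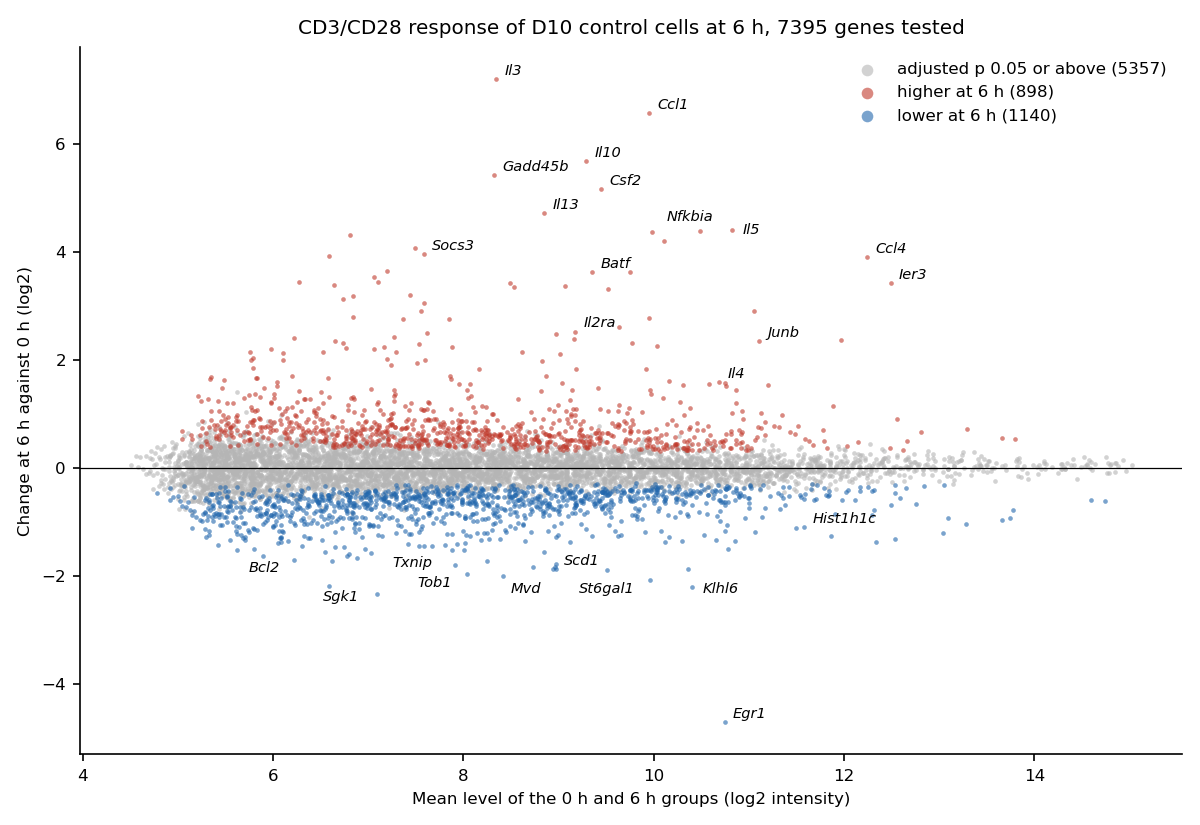
Change at 6 h against 0 h (log2, vertical axis) against the mean log2 intensity of both groups (horizontal axis), 1 point per gene for the 7395 genes tested; red, higher and blue, lower at a limma adjusted p under 0.05. Few genes lie below -2, where Egr1 stands apart, and many lie above 2. Changes of genes that were below background in 1 group, such as Il3, are uncertain here and are given as bounds in the text.

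All tests were two-sided, and each change below is given with its standard error (SE) from the fit, with 2 arrays per group. Among genes above background on all 4 arrays, Ccl1 rose most. Ccl1 encodes a chemokine that attracts CCR8-bearing T cells, and its level was 6.52 and 6.82 at 0 h and 13.29 and 13.18 at 6 h, a change of 6.56 ± 0.18 (adjusted p = 3.95e-10) or 94.7-fold. Il10, Csf2, Il13, Il5, Nfkbia, Ccl3, Nfkbid, Ccl4, Icam1, Batf and Jak2 followed, with changes from 5.68 down to 3.42. The largest fall was that of Egr1, an early growth response transcription factor, from 13.24 and 12.95 to 8.29 and 8.49 (-4.71 ± 0.29, adjusted p = 1.97e-07). The next largest was that of Sgk1, a kinase regulated by phosphoinositide 3-kinase signalling, from 8.17 and 8.35 to 5.96 and 5.87 (-2.35 ± 0.17, adjusted p = 1.13e-06). In none of these 24 genes did the arrays of the groups overlap, as the plot of single arrays shows. The genes were chosen as called, with the largest changes and the same direction in both replicates, so this is no separate support. The same holds where called genes named below are said not to overlap.

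**Figure D2:**
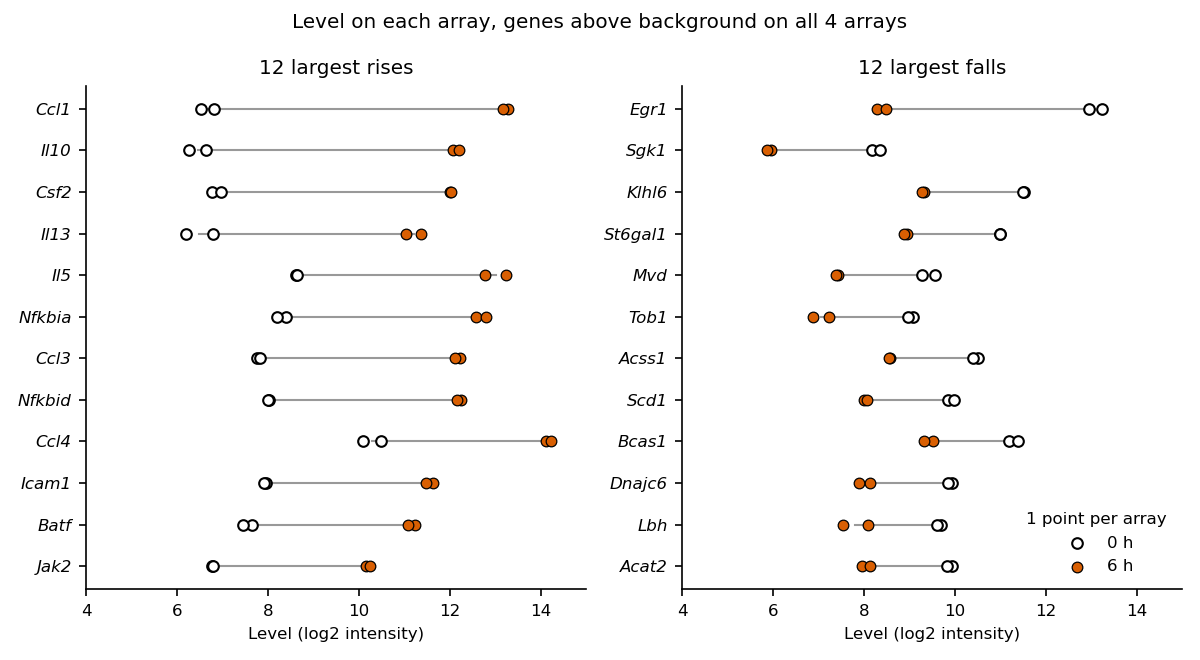
Level (log2 intensity, horizontal axis) of the 12 genes with the largest rises (left) and the 12 with the largest falls (right) among genes above background on all 4 arrays; each circle is 1 array, open at 0 h and filled at 6 h, and the line joins the group means. The groups are apart in every gene, as these were chosen for the largest called changes. Replicates lie close together relative to the change, with Il13 at 0 h the widest pair among the rises.

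Large falls were also those of Klhl6, which encodes a BTB-Kelch protein of lymphocytes (11.53 and 11.49 at 0 h, 9.32 and 9.28 at 6 h), St6gal1, a sialyltransferase, down to 8.95 and 8.88 at 6 h, and Acss1, a mitochondrial acetyl-CoA synthetase (10.50 and 10.41 at 0 h, 8.58 and 8.56 at 6 h). Their respective changes were -2.21 ± 0.12, -2.08 ± 0.12 and -1.89 ± 0.11, and the replicates lay close together in each. For 92 genes that rose and 110 that fell, the lower group was not above background on either array, and only a bound can be given. All bounds hold for the background-corrected levels used here and not for uncorrected ones. The widest bounds among rises were those of Il3 (at least 78.9-fold) and Gadd45b (at least 42.0-fold). Cd74, the invariant chain of MHC class II, was 4.64 and 4.61 at 0 h, which is background, and 8.48 and 8.60 at 6 h, at least 7.49-fold higher (adjusted p = 2.8e-08). Among falls the widest bound was that of the forkhead factor gene Foxq1, with 7.62 and 7.76 at 0 h and background levels of 5.54 and 5.45 at 6 h (at least 4.02-fold lower, adjusted p = 4.88e-06). The bound of the ETS factor gene Etv4 was at least 2.54-fold lower (adjusted p = 0.00113), and that of Bcl2 is given below.

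Of 32 cytokine genes listed, 30 were on the array and 20 could be tested, of which 16 rose, 1 fell and 3 did not pass, beside the 12.1% and 15.4% of all genes tested that rose and fell. A gene could enter the test through stimulated or Akti1/2 arrays alone. This count and those of the other lists therefore describe the genes tested, not all members. The same shares of all genes tested are the comparison for the counts of the other lists below. The median change of the cytokines tested was 2.26, or 1.69 with the genes that have only a bound set at that bound. The haematopoietic cytokines led. Il3, which encodes a growth factor for mast cells and basophils, was at background at 0 h (4.80 and 4.69) and at 11.83 and 12.05 at 6 h, at least 78.9-fold higher (adjusted p = 9.7e-10). Csf2, which encodes GM-CSF, went from 6.77 and 6.97 to 12.01 and 12.03 (5.15 ± 0.20, adjusted p = 3.62e-09). Both sets of arrays were far apart.

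The Th2 effector cytokines rose by very different amounts. Il13, which drives mucus production and airway reactivity, was 6.20 and 6.78 at 0 h and 11.05 and 11.37 at 6 h (4.72 ± 0.43, adjusted p = 9.17e-06). Il5, the eosinophil growth factor, was already at 8.61 and 8.64 at 0 h and reached 12.78 and 13.25 (4.39 ± 0.26, adjusted p = 1.52e-07). Il4, the cytokine that defines the lineage, went from 9.94 and 9.86 to 11.58 and 11.38 (1.58 ± 0.14, adjusted p = 6.4e-06). Il4 thus rose 2.99-fold where Il5 rose 21.0-fold and Il13 26.3-fold, and the groups did not overlap in any of them. The order of Il5 and Il13 was not stable. Without background correction Il13 rose by 3.60, Il5 by 4.05 and Il4 by 1.48 on the log2 scale. Il10, which encodes an anti-inflammatory cytokine also made by Th2 cells, rose from 6.65 and 6.26 to 12.07 and 12.20 (5.68 ± 0.21, adjusted p = 3.05e-09).

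Members of the tumour necrosis factor (TNF) family and other cytokines rose as well. Tnf, the founding member of the family, went from 7.38 and 7.39 to 10.76 and 10.73 (3.37 ± 0.24, adjusted p = 9.62e-07). Ltb, which encodes the membrane anchor of lymphotoxin, went from 8.68 and 8.46 to 11.45 and 11.22 (2.77 ± 0.15, adjusted p = 8.63e-08), and its partner Lta rose from background by at least 3.44-fold. Areg, which encodes the epidermal growth factor receptor ligand amphiregulin, went from 9.70 and 9.50 to 12.61 and 12.38 (2.89 ± 0.21, adjusted p = 1.19e-06). Osm, which encodes oncostatin M of the IL-6 family, rose by 1.60 ± 0.15 (adjusted p = 9.98e-06). Il6 rose from background to 8.78 and 7.69, at least 6.06-fold, and these 6 h replicates were further apart than those of the other cytokines described here. Il33, which encodes an alarmin, rose from background by at least 2.89-fold (adjusted p = 2.37e-06). The 1 cytokine that fell was Csf1, which encodes the macrophage growth factor M-CSF, from 7.14 and 7.04 to 6.01 and 6.08 (-1.05 ± 0.16, adjusted p = 0.000436). Il9, Il17a, Il17f, Il21, Il22, Il25 and Ifng did not enter the test, whereas Il2 and Il31 were not analysed here.

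Several of these genes are neighbours in the genome. In the order of the reference gene table on chromosome 11, Il4 and Il13 are followed by Rad50, Il5 and Irf1, with Kif3a before and Slc22a5 after them. The genes between and beside the cytokines were looked up after their values were seen. Kif3a (-0.01, adjusted p = 0.98) and Slc22a5 (-0.03, adjusted p = 0.888) did not pass the test, and Rad50, a DNA repair gene that lies between Il13 and Il5, fell by 0.49 on the log2 scale (SE 0.11, adjusted p = 0.00564, but 0.0573 without replicate 1 at 0 h). Irf1, which encodes an interferon regulatory factor, rose by 1.42 ± 0.11 (adjusted p = 2.55e-06). Further along the same chromosome, Csf2 and Il3 lie next to each other, and P4ha2, a prolyl hydroxylase gene beside Csf2, fell by 0.52 on the log2 scale (SE 0.13, adjusted p = 0.0127, but 0.0865 without replicate 1 at 0 h and 0.0801 without replicate 2 at 6 h). On chromosome 17, Ltb, Tnf and Lta are adjacent and all rose, while their tested neighbours Prrc2a (-0.34, adjusted p = 0.379), Nfkbil1 (-0.20, adjusted p = 0.418) and Ddx39b (-0.11, adjusted p = 0.447) did not pass.

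Of 23 chemokine genes, all were on the array and 9 could be tested, of which 7 rose and 1 fell, with a median of 1.66 (1.02 with bounds). Beside Ccl1, the largest rises measured in both groups were those of Ccl3 and Ccl4, which encode macrophage inflammatory proteins. Ccl3 went from 7.76 and 7.83 to 12.23 and 12.11 (4.37 ± 0.12, adjusted p = 3.95e-10). Ccl4 went from 10.10 and 10.49 to 14.13 and 14.24 (3.89 ± 0.14, adjusted p = 3.05e-09). Cxcl2, which encodes a neutrophil attractant, rose from background (4.61 and 4.70) to 8.80 and 9.13, at least 10.1-fold (adjusted p = 7.06e-08). Smaller rises were those of Ccl5 (1.02 ± 0.19, adjusted p = 0.00215), which lies near Ccl3 and Ccl4, of Cxcl10 (at least 2.02-fold) and of Xcl1 (at least 1.58-fold), both from background. In contrast Ccl17, which encodes a ligand of the Th2 cell receptor CCR4, fell from 8.06 and 8.06 to 6.90 and 6.76 (-1.23 ± 0.17, adjusted p = 0.000187).

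Receptors for cytokines rose more often than they fell: of 38 listed, 37 were on the array and 20 tested, 10 higher and 3 lower, with a median of 0.48. Il2ra, the high-affinity chain of the IL-2 receptor, went from 7.83 and 8.00 to 10.49 and 10.38 (2.52 ± 0.22, adjusted p = 6.54e-06), and Il2rb, the signalling chain, rose by 1.32 ± 0.23 (adjusted p = 0.00129). Ifngr1, a chain of the interferon-γ receptor, fell from 9.07 and 9.02 to 7.83 and 7.88 (-1.19 ± 0.13, adjusted p = 4.95e-05). Of 36 homing and chemokine receptor genes, 12 were tested, with 3 higher (5 without replicate 2 at 6 h) and 4 lower. Icam1, the adhesion ligand of LFA-1, rose from 7.96 and 7.91 to 11.63 and 11.49 (3.62 ± 0.13, adjusted p = 3.05e-09), while Selplg, the P-selectin ligand used in rolling, fell from 11.35 and 11.49 to 10.43 and 10.55 (-0.93 ± 0.15, adjusted p = 0.000608).

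Costimulatory, checkpoint and TNF superfamily genes moved upwards in larger number. Of 49 listed, 47 were on the array and 27 tested, of which 16 rose and 1 fell (median 0.75), and the fall was not called without replicate 2 at 0 h or replicate 2 at 6 h. Tnfsf14, which encodes the ligand LIGHT, was above background on only 1 of the arrays at 0 h (5.65 and 5.26) and was 9.63 and 9.44 at 6 h (4.08 ± 0.16, adjusted p = 3.05e-09). Traf1, an adaptor of TNF receptors, rose by 3.31 ± 0.15 (adjusted p = 1.31e-08). The death receptor gene Fas and Tnfsf9, which encodes the ligand of 4-1BB, rose from background by at least 6.93-fold and at least 6.32-fold. Cd69, the early activation marker that retains lymphocytes in tissue, went from 7.89 and 7.60 to 10.35 and 10.07 (2.47 ± 0.17, adjusted p = 6.69e-07). Of the checkpoint genes, Cd274, which encodes PD-L1, rose by 1.32 ± 0.18 (adjusted p = 0.000212) and Ctla4, the inhibitory counterpart of Cd28, by 0.75 ± 0.13 (adjusted p = 0.00105). Cd28 itself was 9.79 and 9.79 at 0 h and 10.01 and 9.89 at 6 h (0.16 ± 0.16, adjusted p = 0.503).

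The genes of the T cell receptor complex and its proximal signalling did not lean one way. Of 45 listed, 42 were on the array and 34 tested, of which 7 rose, 7 fell and 20 did not pass, and the median was 0.05, or -0.03 when all arrays were scaled to 1 mean. The share called was 41.2%, beside 27.6% of all genes tested. Without replicate 1 at 0 h only 3 of the genes fell, and without replicate 2 at 0 h or replicate 1 at 6 h only 4 did. Rasgrp1, the exchange factor that couples diacylglycerol to Ras, rose from 9.03 and 9.09 to 10.14 and 10.29 (1.16 ± 0.14, adjusted p = 0.000108). The calcium channel gene Orai1 rose by 0.68 ± 0.13 (adjusted p = 0.00203), whereas Stim1, its sensor in the endoplasmic reticulum, fell by 0.69 on the log2 scale (SE 0.14, adjusted p = 0.00314). Dgka, which removes diacylglycerol, and Prkcq, which encodes the kinase PKC-θ, fell by 0.77 and 0.55 (adjusted p = 0.00266 and 0.00218).

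NF-κB dimers are held in the cytoplasm by inhibitory IκB proteins, and the pathway is known to switch on its own inhibitors. Of 32 NF-κB and NFAT genes, 31 were on the array and 27 tested, of which 12 rose and 1 fell, with a median of 0.43. The largest rises were among inhibitors and IκB-like proteins. Nfkbia, which encodes IκBα, went from 8.40 and 8.20 to 12.57 and 12.79 (4.38 ± 0.17, adjusted p = 3.05e-09, 20.8-fold). Nfkbid, which encodes a nuclear IκB-like protein, went from 8.02 and 8.00 to 12.25 and 12.16 (4.20 ± 0.16, adjusted p = 3.05e-09). In both, the replicates differed by far less than the groups. Bcl3, another nuclear member, rose from background to 8.73 and 8.91, at least 9.09-fold, and Nfkbiz rose by 2.90 ± 0.21 (adjusted p = 1.19e-06). Nfkbie, which encodes IκBε, went from 6.03 and 6.06 to 8.11 and 8.45 (2.24 ± 0.24, adjusted p = 3.17e-05).

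The ubiquitin-editing enzyme gene Tnfaip3, which encodes the inhibitor A20, went from 6.09 and 6.66 to 8.91 and 8.81 (2.49 ± 0.21, adjusted p = 4.59e-06), and its partner Tnip1 rose by 1.12 ± 0.13 (adjusted p = 5.95e-05). Among the subunits, Relb went from 6.05 and 5.94 to 8.82 and 8.66 (2.75 ± 0.16, adjusted p = 1.54e-07). Nfkb2, its p100 precursor partner, rose by 2.42 ± 0.28 (adjusted p = 5.39e-05), and Nfkb1 by 1.55 ± 0.16 (adjusted p = 1.92e-05). Rel rose from background to 6.86 and 6.76 (at least 2.25-fold) and the kinase gene Ikbke by at least 2.66-fold. Rela, which encodes the p65 subunit, was 10.58 and 10.70 at 0 h and 10.75 and 11.09 at 6 h, which did not pass (0.27 ± 0.16, adjusted p = 0.236). Of the NFAT genes, Nfatc1 fell by 0.63 on the log2 scale (SE 0.11, adjusted p = 0.000926).

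The promoters of these genes were read from RefSeq (build GRCm38.p6), from 250 bases before to 50 bases after the start of transcription. Of the 12 genes of the list that rose, 8 had a promoter in the table and 7 of the 8 held a match to the NF-κB consensus, searched on both strands. The promoter of Ikbke held none. The 7 with a match are shown because they let the position and form of the matches be compared, with that of the chemokine gene Cxcl2, whose promoter is among the 2 of 5 of chemokine genes that rose to hold one. Each is written on the strand of its gene, and capitals mark the matches.

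Nfkbia: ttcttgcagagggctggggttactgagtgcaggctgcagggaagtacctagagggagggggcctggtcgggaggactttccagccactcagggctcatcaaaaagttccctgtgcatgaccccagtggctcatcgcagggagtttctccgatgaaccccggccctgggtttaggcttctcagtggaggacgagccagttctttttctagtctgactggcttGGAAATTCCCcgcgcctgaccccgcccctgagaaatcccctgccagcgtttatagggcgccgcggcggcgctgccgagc
Nfkbid: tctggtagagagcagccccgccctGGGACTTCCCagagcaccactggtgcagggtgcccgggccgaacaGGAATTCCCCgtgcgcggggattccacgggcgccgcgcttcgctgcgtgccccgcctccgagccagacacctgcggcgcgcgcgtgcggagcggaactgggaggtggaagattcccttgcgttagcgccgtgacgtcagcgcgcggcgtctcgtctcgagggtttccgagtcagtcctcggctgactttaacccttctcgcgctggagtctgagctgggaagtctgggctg
Nfkbie: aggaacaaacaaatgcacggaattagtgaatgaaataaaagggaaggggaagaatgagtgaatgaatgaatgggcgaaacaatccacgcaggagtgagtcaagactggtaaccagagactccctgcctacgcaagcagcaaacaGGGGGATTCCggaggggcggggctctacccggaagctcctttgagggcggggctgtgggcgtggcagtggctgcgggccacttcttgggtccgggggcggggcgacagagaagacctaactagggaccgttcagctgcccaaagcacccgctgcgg
Bcl3: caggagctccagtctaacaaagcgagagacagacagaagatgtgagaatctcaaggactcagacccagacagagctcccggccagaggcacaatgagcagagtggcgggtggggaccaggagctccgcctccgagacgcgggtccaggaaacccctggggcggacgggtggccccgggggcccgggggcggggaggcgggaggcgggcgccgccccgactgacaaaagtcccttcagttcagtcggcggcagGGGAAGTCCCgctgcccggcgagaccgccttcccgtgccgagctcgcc
Rel: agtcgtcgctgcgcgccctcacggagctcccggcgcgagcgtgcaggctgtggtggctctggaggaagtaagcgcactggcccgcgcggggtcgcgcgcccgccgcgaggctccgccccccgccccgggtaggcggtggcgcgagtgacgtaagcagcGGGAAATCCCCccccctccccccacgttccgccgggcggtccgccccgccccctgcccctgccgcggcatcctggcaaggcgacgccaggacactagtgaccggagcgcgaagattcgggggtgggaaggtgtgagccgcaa
Tnfaip3: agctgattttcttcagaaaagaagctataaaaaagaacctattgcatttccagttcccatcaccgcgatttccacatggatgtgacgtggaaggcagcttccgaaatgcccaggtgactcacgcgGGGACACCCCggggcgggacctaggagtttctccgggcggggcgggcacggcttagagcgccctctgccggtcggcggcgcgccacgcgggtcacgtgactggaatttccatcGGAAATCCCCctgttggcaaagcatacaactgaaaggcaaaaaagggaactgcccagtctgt
Tnip1: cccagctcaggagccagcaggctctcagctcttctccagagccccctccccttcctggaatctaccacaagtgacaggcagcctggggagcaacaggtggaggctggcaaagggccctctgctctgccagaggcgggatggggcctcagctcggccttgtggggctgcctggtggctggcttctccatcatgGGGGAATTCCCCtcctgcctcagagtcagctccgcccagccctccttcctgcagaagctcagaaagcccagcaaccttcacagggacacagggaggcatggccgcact
Cxcl2: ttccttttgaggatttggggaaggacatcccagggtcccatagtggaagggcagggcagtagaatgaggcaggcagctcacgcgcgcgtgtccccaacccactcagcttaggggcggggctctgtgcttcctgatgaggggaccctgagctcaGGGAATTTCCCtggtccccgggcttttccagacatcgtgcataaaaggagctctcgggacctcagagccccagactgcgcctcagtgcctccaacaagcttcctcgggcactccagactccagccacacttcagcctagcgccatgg

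Positions are counted from the start of transcription. The match lay from -29 to -20 in Nfkbia (chr12:55492598-55492897, minus strand), from -226 to -217 and from -181 to -172 in Nfkbid (chr7:30422156-30422455, plus strand), from -106 to -97 in Nfkbie (chr17:45555450-45555749, plus strand) and from 3 to 12 in Bcl3 (chr7:19822706-19823005, minus strand). In Rel (chr11:23770920-23771219, minus strand) and Cxcl2 (chr5:90903649-90903948, plus strand) overlapping matches on both strands ran from -92 to -82 and from -97 to -87. Tnfaip3 (chr10:19015361-19015660, minus strand) held matches from -125 to -116 and from -12 to -3, and Tnip1 (chr11:54962891-54963190, minus strand) a run of overlapping matches from -58 to -47. Of the 11 promoters of the NF-κB genes that rose (some genes have several), 63.6% held a match, against 4.51% of all 32851 promoters in the table, 5.01% of the 7046 promoters of genes tested, 13.9% of the 194 promoters of genes that rose over 2-fold and 4.05% of the 173 of genes that fell over 2-fold. Of the 15 promoters of cytokine genes that rose, 13.3% held a match, and so did the 1 promoter of the cytokine gene that fell. Whether the match goes with the rise or with the list was not tested. These matches are a description of letters, and binding was not measured. A TATA box (TATAAA, gene strand only) stood in 40.0% of the 15 promoters of cytokine genes that rose and in 4.51% of those of genes tested. It stood in 7.0% of the 871 promoters of all genes that rose and in 11.3% of the 194 of genes that rose over 2-fold. None of the 5 promoters of chemokine genes that rose held it. Whether the TATA box goes with the rise or with the list was not tested either.

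Of 29 AP-1, EGR and other immediate early genes, 27 were on the array and 15 tested, of which 6 rose and 2 fell. The AP-1 partner gene Batf, needed for effector differentiation of T cells, went from 7.65 and 7.44 to 11.23 and 11.09 (3.62 ± 0.17, adjusted p = 1.95e-08). Ier3, an immediate early survival gene, went from 10.72 and 10.84 to 14.31 and 14.09 (3.42 ± 0.18, adjusted p = 7.01e-08), and Junb from 9.97 and 9.88 to 12.28 and 12.27 (2.35 ± 0.15, adjusted p = 2.75e-07). Jun moved the other way, from 6.41 and 6.44 to 5.66 and 5.26, where 1 of the arrays was still above background (-0.96 ± 0.18, adjusted p = 0.0021). Fos was 6.60 and 6.91 at 0 h and 6.79 and 6.33 at 6 h, so that its arrays overlapped (-0.20 ± 0.31, adjusted p = 0.685). Egr1 fell as given above, and Egr2 did not pass the test (9.15 and 8.93 at 0 h, 9.50 and 9.17 at 6 h, 0.29 ± 0.21, adjusted p = 0.342).

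Of 44 transcription factor genes of T cell lineages, 39 were on the array and 23 tested, of which 10 rose and 3 fell (1 fell without replicate 1 at 0 h or replicate 2 at 6 h). Irf4, a factor required for Th2 and effector differentiation, went from 6.81 and 6.90 to 10.22 and 10.17 (3.34 ± 0.20, adjusted p = 1.64e-07). Bhlhb2, the basic helix-loop-helix repressor also called Bhlhe40, rose by 1.83 ± 0.24 (adjusted p = 0.00016), and Bcl6, the follicular helper factor, rose from background by at least 2.03-fold. Stat4, which relays IL-12 signals in Th1 cells, fell from 9.01 and 9.02 to 8.05 and 8.18 (-0.90 ± 0.11, adjusted p = 0.0001). Gata3, the master regulator of Th2 cells, was looked up after its values were seen, with 12.22 and 12.24 at 0 h and 12.47 and 12.66 at 6 h (0.34, adjusted p = 0.0511).

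Genes listed as feedback regulators of receptor and cytokine signalling rose more often than they fell. Of 34 listed, 32 were on the array and 22 tested, of which 11 rose and 2 fell (median 0.59, or 0.41 with bounds), and 1 fell without replicate 1 or 2 at 0 h or replicate 1 at 6 h. Gadd45b, a stress-responsive activator of p38 signalling, went from background (5.54 and 5.67) to 10.96 and 11.10, at least 42.0-fold (adjusted p = 3.62e-09). Socs3, the suppressor of cytokine signalling 3, was above background on 1 array at 0 h (5.66 and 5.56) and at 9.57 and 9.55 at 6 h (3.95 ± 0.23, adjusted p = 1.58e-07). Zc3h12a and Zfp36, which encode proteins that shorten the life of cytokine messages, rose by 3.05 ± 0.21 and 2.60 ± 0.14 (adjusted p = 6.1e-07 and 7.99e-08). Jak2, which encodes a kinase of cytokine receptors, went from 6.76 and 6.79 to 10.16 and 10.24 (3.42 ± 0.13, adjusted p = 3.05e-09). The survival kinase gene Pim2 rose by 2.01 ± 0.17 (adjusted p = 4.54e-06). Among G protein regulators, Rgs16 rose by 3.65 ± 0.23 (adjusted p = 2.75e-07, above background on 1 array at 0 h), whereas Rgs1 fell by 0.67 on the log2 scale (SE 0.13, adjusted p = 0.00206).

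FOXO transcription factors keep resting lymphocytes out of the cell cycle and are switched off by Akt. Of 38 FOXO target and quiescence genes, 37 were on the array and 24 tested, of which 3 rose and 10 fell (median -0.31). Tob1, an antiproliferative gene, fell from 9.08 and 8.97 to 7.22 and 6.88 (-1.98 ± 0.16, adjusted p = 3.5e-06). Txnip, the inhibitor of thioredoxin and of glucose uptake, fell from 8.87 and 8.75 to 6.80 and 7.24 (-1.79 ± 0.21, adjusted p = 5.47e-05). Ypel3, a growth suppressor, fell by 1.56 on the log2 scale (SE 0.15, adjusted p = 1.31e-05). Klf6, Cited2, Tsc22d3 (which encodes the glucocorticoid-induced leucine zipper) and Irs2 fell by 1.39, 0.98, 0.90 and 0.85. Btg1, an antiproliferative gene of the same family as Tob1, rose instead, from 12.04 and 12.18 to 13.06 and 12.97 (0.90 ± 0.10, adjusted p = 5.61e-05).

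Genes that build ribosomes rose more often than they fell, by small amounts. Of 66 MYC network and ribosome biogenesis genes, 57 were on the array and 47 tested, of which 24 rose and 2 fell (median 0.43). The count of rises was 19 when all arrays were scaled to 1 mean and 16 to 18 with 1 array left out, and none fell without replicate 1 at 0 h or replicate 2 at 6 h. Polr1c, a subunit shared by RNA polymerases I and III, went from 9.16 and 9.33 to 10.72 and 10.64 (1.44 ± 0.16, adjusted p = 4.72e-05). Ppan, Rcl1 and Pes1, which encode assembly factors of ribosomal subunits, rose by 1.28 ± 0.13, 1.22 ± 0.11 and 1.09 ± 0.12 (adjusted p = 2.08e-05, 6.5e-06 and 2.86e-05). Myc itself, named after its values were seen, was 7.62 and 7.31 at 0 h and 7.73 and 7.79 at 6 h (0.29 ± 0.18, adjusted p = 0.279). An E-box (CACGTG), the sequence that MYC and related factors bind, stood in 34.8% of the 23 promoters of the genes of this list that rose, in 10.2% of those of genes tested and in 7.15% of all promoters. It stood in 12.3% of the 871 promoters of all genes that rose, and in 1 of the 2 of list genes that fell. Whether it goes with the rise or with the list was not tested.

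The proteins of the finished ribosome moved less. Of 53 cytosolic ribosomal protein genes tested, 3 rose and none fell, with a median of 0.06. In this list, 1 gene rose without replicate 2 at 0 h or replicate 2 at 6 h, and none without either of the other arrays. Of 67 mitochondrial ribosomal protein genes, 15 rose and none fell (median 0.09), but only 5, 4, 3 and 7 rose without replicate 1 at 0 h, replicate 2 at 0 h, replicate 1 at 6 h and replicate 2 at 6 h, and 8 when all arrays were scaled to 1 mean. Of 51 translation factor genes, 12 rose and 3 fell (median 0.19), with 4, 4, 5 and 6 rises and 1, 2, 1 and 1 falls when the same arrays were left out in that order. The shares called were 5.66% of the cytosolic ribosomal, 22.4% of the mitochondrial ribosomal and 29.4% of the translation factor genes, beside 27.6% of all genes tested. Eif4e3, a cap-binding protein of the eIF4E family, fell from 8.85 and 8.66 to 7.54 and 7.54 (-1.21 ± 0.15, adjusted p = 9.61e-05). Of 18 aminoacyl-tRNA synthetase genes 2 rose, but none without replicate 1 at 0 h or replicate 1 at 6 h, and 1 without replicate 2 at 0 h. Srm, the spermidine synthase gene, rose by 0.73 ± 0.12 (adjusted p = 0.000695) among 28 polyamine, nucleotide and one-carbon genes, of which 4 rose and 1 fell (2 rose without replicate 1 or replicate 2 at 6 h, and none fell with any 1 array left out).

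Glycolytic genes mostly moved down. Of 30 genes of glycolysis and glucose uptake, 27 were on the array and 23 tested, of which 10 fell and 1 rose (median -0.29). Pfkp, the platelet isoform of phosphofructokinase, fell from 11.22 and 11.08 to 9.90 and 9.91 (-1.25 ± 0.13, adjusted p = 2.06e-05). Its muscle isoform Pfkm fell by 0.85 on the log2 scale (SE 0.13, adjusted p = 0.000637). Pdk1, the kinase that blocks pyruvate dehydrogenase, fell from 8.39 and 8.22 to 7.26 and 7.31 (-1.02 ± 0.13, adjusted p = 0.000166). The 1 gene of the list that rose was Slc2a6, a lysosomal member of the glucose transporter family, from 7.91 and 8.04 to 10.29 and 10.44 (2.39 ± 0.17, adjusted p = 9.99e-07). Its arrays were far apart between the groups.

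The sterol and fatty acid synthesis genes had the lowest median of the 33 lists, -0.82 (-0.74 with bounds). Of 32 listed, 27 were on the array and 24 tested, of which 15 fell and 1 rose, and 14 or 15 fell with any 1 array left out. Mvd, the decarboxylase of the mevalonate pathway, fell from 9.27 and 9.57 to 7.43 and 7.39 (-2.01 ± 0.12, adjusted p = 1.59e-07). Scd1, which makes monounsaturated fatty acids, fell from 9.84 and 9.99 to 8.01 and 8.06 (-1.88 ± 0.12, adjusted p = 2.61e-07). Acat2, the acetoacetyl-CoA thiolase gene, fell from 9.93 and 9.82 to 7.95 and 8.14 (-1.83 ± 0.13, adjusted p = 9.62e-07). The groups did not overlap in any of them. Pmvk, the enzyme before Mvd, fell by 1.46 on the log2 scale (SE 0.14, adjusted p = 1.16e-05), and Dhcr7, which completes cholesterol, fell to background (at least 2.10-fold lower, adjusted p = 0.000508). Hsd17b7, also of the cholesterol pathway, was the 1 gene that rose (0.70 ± 0.13, adjusted p = 0.00165). None of the 12 promoters in the table for the sterol genes that fell held the sterol regulatory element searched (TCACNCCAC, both strands), which 1.11% of the promoters of genes tested held. These 12 promoters belong to 9 of the 15 genes. With so rare an element their number is too small to tell this list from other genes.

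**Figure D3:**
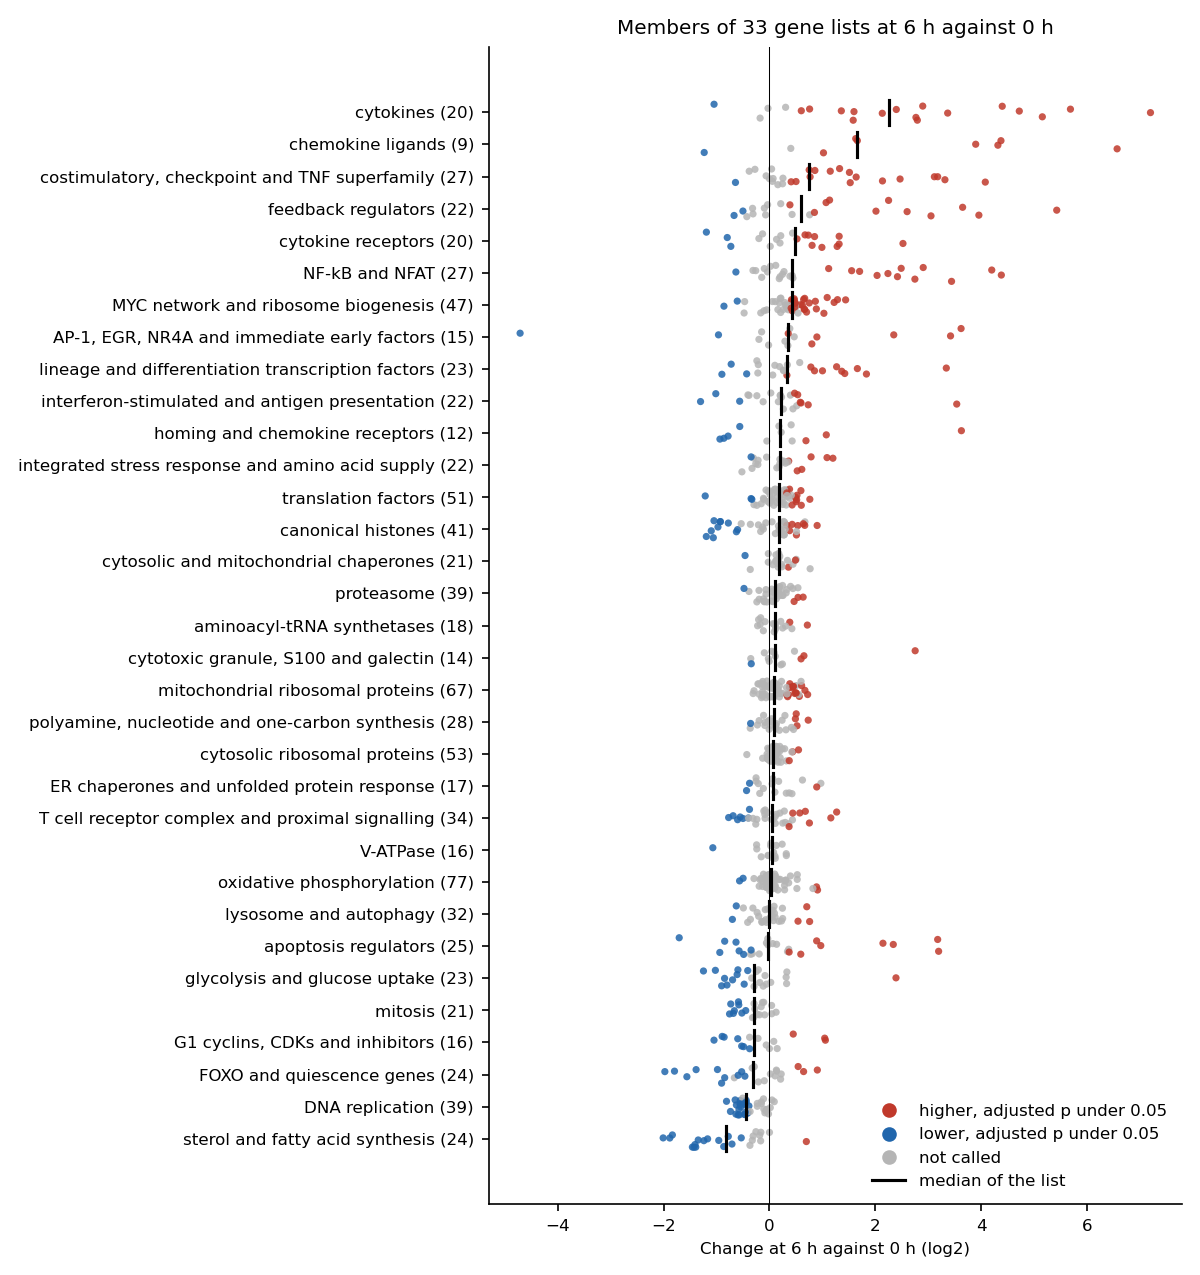
Change at 6 h against 0 h (log2, horizontal axis) of each tested member of 33 gene lists, 1 point per gene, with the number tested in brackets and the median as a black bar; red, higher and blue, lower at a limma adjusted p under 0.05, grey, not called. Cytokines (median 2.26) and chemokine ligands (1.66) stand at the top and sterol and fatty acid synthesis (-0.82) at the bottom.

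Cell cycle genes fell more often than they rose. Of 39 DNA replication genes tested (47 listed, 45 on the array), 22 fell and none rose, with a median of -0.44. The falls were small and the count was 12 without replicate 1 or 2 at 0 h or replicate 1 at 6 h, and 13 without replicate 2 at 6 h. Pold1, the catalytic subunit of DNA polymerase δ, fell from 10.52 and 10.38 to 9.62 and 9.66 (-0.81 ± 0.15, adjusted p = 0.00212). Rrm2, the small subunit of ribonucleotide reductase, fell from 9.15 and 9.14 to 8.41 and 8.40 (-0.74 ± 0.10, adjusted p = 0.000275). The replication factor genes Mcm3 and Mcm10 fell by 0.65 and 0.63 (adjusted p = 0.00282 and 0.000734). Of 21 mitosis genes tested, 8 fell and none rose (median -0.29). The share called was 38.1%, beside 27.6% of all genes tested. The falls numbered 3 without replicate 1 at 0 h, 4 without replicate 1 at 6 h and 5 without replicate 2 at 6 h. Prc1, which organises the spindle midzone, was among the 8, with 11.29 and 11.38 at 0 h and 10.62 and 10.73 at 6 h (-0.66 ± 0.11, adjusted p = 0.000769).

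Of 16 G1 genes tested, 3 rose and 7 fell (4 fell without replicate 1 at 0 h). Ccnd2, cyclin D2, rose from 8.57 and 8.54 to 9.66 and 9.53 (1.04 ± 0.23, adjusted p = 0.0055), and its kinase partner Cdk6 rose from background by at least 1.25-fold (adjusted p = 0.00441). Ccnd3, cyclin D3, fell by 0.60 on the log2 scale (SE 0.10, adjusted p = 0.00091). The S-phase transcription factors E2f1 and E2f2 fell by 0.86 and 1.05 (adjusted p = 0.000731 and 0.000544), and the CDK inhibitor gene Cdkn2c by 0.89 (adjusted p = 0.000451). Cyclins D2 and D3 thus moved in opposite directions, and the arrays of the groups overlapped in neither gene.

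Of 32 apoptosis genes, 30 were on the array and 25 tested, of which 8 rose and 7 fell (4 fell without replicate 1 at 6 h). The survival genes of the BCL2 family differed in direction. Bcl2a1d, which encodes a member of the A1 family whose copies are very similar in sequence, so that its probe may not separate them, went from 5.87 and 5.81 to 9.16 and 8.91 (3.19 ± 0.20, adjusted p = 2.32e-07). Bcl2l1, which encodes BCL-XL, went from 6.38 and 6.06 to 8.26 and 8.48 (2.14 ± 0.18, adjusted p = 4.88e-06). Bcl2 fell from 6.87 and 7.28 to background levels of 5.22 and 5.52, at least 2.62-fold lower (adjusted p = 8.43e-06). Bbc3, which encodes the killer protein PUMA, fell by 0.94 on the log2 scale (SE 0.11, adjusted p = 8.79e-05). The inflammatory caspase gene Casp4 rose from background by at least 4.54-fold, and the executioner caspase gene Casp6 fell by 0.85 (adjusted p = 0.000267).

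Among canonical histone genes, the called falls were confined to the H2A and linker (H1) classes. Of 41 tested, 8 rose and 10 fell, and with any 1 array left out 3 or 4 rose and 10 fell. The share called was 43.9%, beside 27.6% of all genes tested. Of 12 H2A genes, 9 fell and 1 rose (median -0.85), whereas of 11 H2B genes 5 rose and none fell (median 0.33). Of 7 H3 genes 1 rose and none fell (median 0.11), and of 10 H4 genes 1 rose and none fell (median 0.23). Histone genes of a class are nearly identical in sequence. Values of single genes are therefore uncertain, and members of a class may not be separate measurements. The linker histone gene Hist1h1c fell from 12.18 and 12.08 to 11.08 and 10.99 (-1.10 ± 0.10, adjusted p = 1.01e-05) and stood at a mean of 8.38 at 12 h.

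Of 22 interferon-stimulated and antigen presentation genes tested, 6 rose and 3 fell, or 3 and 4 when all arrays were scaled to 1 mean. Without replicate 2 at 0 h or replicate 2 at 6 h, 3 rose. Gbp3, an interferon-inducible GTPase gene, rose from background to 8.84 and 8.83 (at least 9.17-fold, adjusted p = 1.52e-07), whereas Usp18 and Ifit2, both interferon-induced, fell to background by at least 1.57-fold and at least 1.67-fold (adjusted p = 0.000637 and 0.00113). Of 14 granule, S100 and galectin genes 3 rose and 1 fell (1 rose without replicate 1 at 0 h or replicate 1 at 6 h, and none fell with any 1 array left out), and Serpinb6b, which encodes an inhibitor of granule proteases, went from 6.20 and 6.75 to 9.36 and 9.09 (2.75 ± 0.26, adjusted p = 1.18e-05). Of 22 integrated stress response genes 6 rose and 1 fell (2 rises without replicate 1 at 0 h and 3 without replicate 1 at 6 h), among them the mTORC1 inhibitor gene Ddit4 (1.20 ± 0.18, adjusted p = 0.000363). The shares called were 40.9%, 28.6% and 31.8% of the interferon, granule and stress response lists, beside 27.6% of all genes tested. The autophagy gene Atg7, called higher, was not above background on any array at 0 h or 6 h, and lost the call under 8 of the alternatives. Few of 17 endoplasmic reticulum chaperone and unfolded protein response genes (1 higher, 2 lower), 21 other chaperones (2 and 1), 32 lysosome and autophagy genes (3 and 2), 39 proteasome genes (3 and 1), 77 oxidative phosphorylation genes (2 and 2) and 16 V-ATPase genes (0 and 1) were called, shares below the 27.6% of all genes. With 1 array left out, 0 to 3 genes of each of these lists were called in either direction.

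The levels at 6 h differed from those at 2 h in 1078 genes (14.6% of those tested, 548 higher and 530 lower at 6 h), and those at 12 h from those at 6 h in 1004 (13.6%, 513 higher and 491 lower at 12 h). These comparisons share the 6 h arrays with each other and with the comparison above. Without replicate 2 at 2 h or replicate 2 at 6 h, 451 and 452 genes differed between 6 h and 2 h, and 660 did without replicate 1 at 6 h. Leaving out 1 array of the comparison of 12 h with 6 h gave 400 (replicate 1 at 12 h), 508 (replicate 2 at 12 h), 498 and 498 (replicates 1 and 2 at 6 h). Which direction held more genes was not stable in either comparison: with all arrays scaled to 1 mean, 497 genes were higher and 544 lower at 6 h than at 2 h, and without replicate 1 at 12 h, 199 were higher and 201 lower at 12 h than at 6 h.

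Cytokines differed in their timing. The mean level of Csf2 was 11.83 at 2 h and 12.02 at 6 h, a difference of 0.19 (adjusted p = 0.59), and Il4 and Nfkbia likewise differed by 0.13 and 0.13 (adjusted p = 0.59 and 0.68). Il3, in contrast, was at 9.30 at 2 h and 2.64 higher at 6 h (adjusted p = 2.5e-05), and Il5 was at 10.36 and 2.66 higher (adjusted p = 6.3e-05). Osm, Pim2 and Bcl2l1 did not pass the test at 2 h against 0 h (0.12, -0.07 and 0.09, adjusted p = 0.66, 0.84 and 0.79) and were higher at 6 h than at 2 h by 1.48, 2.08 and 2.05. Socs3 also gained between 2 h and 6 h, by 2.42 (adjusted p = 6.3e-05). From 0 h to 2 h, Egr1 fell by 3.76 on the log2 scale (adjusted p = 4.4e-06), to a mean of 9.34. Other genes were lower again at 6 h than at 2 h: Cd69 by 0.86 (adjusted p = 0.0054), Nfkbiz by 1.11 (adjusted p = 0.0046), Tnfaip3 by 0.80 (adjusted p = 0.024) and Cxcl10 by 0.85 (adjusted p = 0.012) on the log2 scale.

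Between 6 h and 12 h, several early rises receded. Gadd45g, Zfp36, Ccl1, Areg and Cd69 fell by 1.42, 1.29, 1.32, 1.27 and 1.16 on the log2 scale, while Ctla4 rose by a further 1.12 (adjusted p = 0.00023). Of the 33 lists, the sterol list had the highest median change from 6 h to 12 h: 15 of the 24 genes tested were higher at 12 h than at 6 h and none was lower, with a median of 0.72. The median of this list relative to 0 h was -0.40 at 2 h, -0.82 at 6 h and -0.22 at 12 h. Mvd returned to a mean of 9.09 at 12 h, 1.68 above 6 h (adjusted p = 1.4e-05), Scd1 gained 1.46 and Acat2 1.42. Of 23 glycolysis and 39 DNA replication genes, 7 and 7 were higher at 12 h than at 6 h, beside 513 of 7395 tested. In contrast Dnajc6, which encodes an auxilin of clathrin uncoating, fell further, from a mean of 10.24 at 2 h to 5.81 at 12 h.

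**Figure D4:**
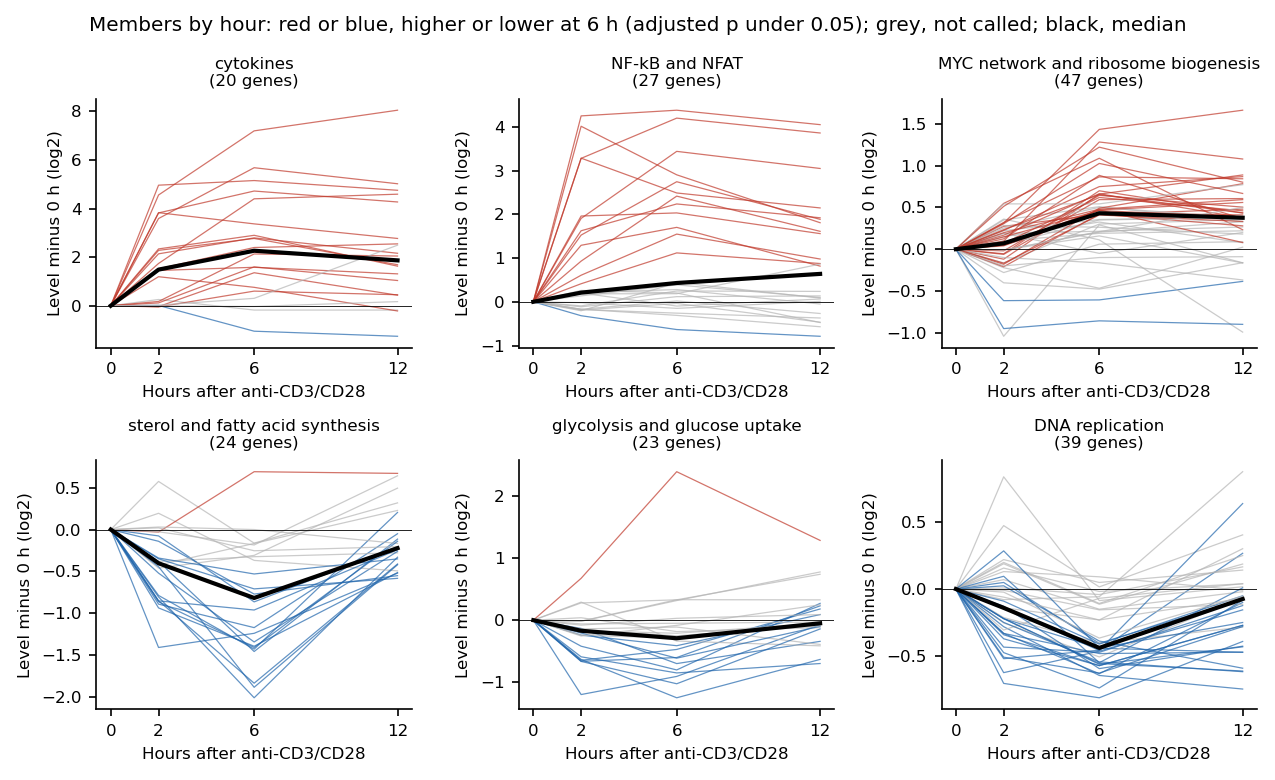
Mean level minus the 0 h mean (log2, vertical axis; scales differ between panels) at 0, 2, 6 and 12 h after stimulation (horizontal axis), 1 line per tested gene of 6 lists; red, higher and blue, lower at 6 h at a limma adjusted p under 0.05, grey, not called, black, median. The median of the sterol list is lowest at 6 h (-0.82) and nearer to 0 at 12 h (-0.22), and that of the cytokines is 2.26 at 6 h.

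The score that the study's methods use, J5, sets the difference of a gene's mean linear intensities against the average size of such differences and has no error term. The study's text states a threshold of 20 for its 2 h list and none for 6 h, so 20 was carried over here. The score was beyond 20 in 132 genes, 91 higher and 41 lower at 6 h. With dim genes left out 30 were, and 62 genes were beyond a score of 30. Of the 132 genes, 87 were also called by limma, 65.9% of the J5 genes and 4.27% of the limma calls, and all 87 in the same direction.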

How the data were processed

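Total RNA of D10 T cells was labelled and hybridised to Illumina MouseRef-8 arrays, 16 in all: 8 groups of 2, on 2 chips with 1 array of each group on each. The authors deposited bead intensities per gene that were not normalized, and the deposited intensity tables of 18138 genes and of 798 negative control probes were used. The 4 arrays of control cells at 0 h and 6 h were taken by their titles, and the 2 h and 12 h control arrays for comparison. Intensities were corrected against the negative controls (normexp, offset 16), quantile normalized and log2 transformed (neqc, limma 3.58.1, R 4.3.3). Genes with a detection p under 0.01 (the fraction of negative controls that reached the gene's intensity) on at least 2 of 16 arrays were kept, 7395 in all. All 8 groups were fitted together (lmFit, eBayes), with 8 residual and 4.26 prior degrees of freedom, and calls were made at p under 0.05 after Benjamini-Hochberg adjustment. The functions were tested on simulated data. Depth is not defined for arrays, and their number limits the precision (median SE of a change 0.152).

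Where neither array of a group was above background, the fold is a bound: the mean of the brighter group against the dimmest level above background on each array or the gene's own level, whichever was higher. Gene lists and members were chosen with earlier results of these data known. Genes were named by rule: the 12 largest rises and falls above background on all 4 arrays, the 8 widest bounds each way, up to 4 members with the largest changes each way in each list, and any member of the cytokine, chemokine, immediate early, NF-κB and NFAT, T cell receptor, costimulatory, feedback, FOXO and synthetase lists. Other genes are said to be chosen after their values were seen. Symbols come from the deposited table, 21 of them restored from dates a spreadsheet had made of them, and 16590 genes matched the reference gene table by ID. Promoters and gene order come from RefSeq (GRCm38.p6). J5 used intensities scaled to the 95th percentile of each array. Python 3.11.15 (pandas 2.3.3, numpy 2.4.6, matplotlib 3.10.9) served for tables and figures.

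Alternatives were another background correction, scaling to the same mean, other filters, a fit of the 4 arrays compared, replicate number or chip as a block, each array left out in turn and, chosen after seeing the data, crossed replicate numbers. Deviations of same-numbered control arrays correlated at -0.063 for 0 h with 6 h, and over all pairs of control time points from -0.162 to 0.181, so the numbers were not taken as pairs.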

Additional observations from a re-analysis of the deposited data

Results flagged for a closer look

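The change from 0 h differed between time points of the same control cells, by the limma test of the difference itself. Between 6 h and 2 h it differed in 1078 genes, and between 12 h and 6 h in 1004 genes (2 arrays per group, adjusted p under 0.05). In the comparison with 2 h, Il3 and Il5 gained 2.64 and 2.66 on the log2 scale by 6 h, and in that with 12 h, Mvd gained 1.68 after 6 h.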

How the results depend on the processing

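None of the 243 named genes called changed sign under any alternative. The medians of 5 of 33 lists did (T cell receptor, endoplasmic reticulum chaperones, apoptosis, oxidative phosphorylation, lysosome), all between -0.115 and 0.062. The 2038 calls at 6 h against 0 h became 2110 without background correction, 2105 with scaling to 1 mean, 1723 without a filter, 1757 with genes above background on all 16 arrays, 2060 with genes above background on 2 of the 4 arrays, 1945 in a fit of the 4 arrays, and 1202 to 1416 with 1 array left out. At 6 h against 2 h, 1078 calls became 502 in a fit of the 4 arrays and 451 to 754 with 1 array left out, and at 12 h against 6 h, 1004 became 400 to 508. Leaving out an array leaves fewer samples. With the replicate number as a block, 2014, 1061 and 987 genes were called, and with the chip as a block 2045, 1085 and 990. The correlation of replicate deviations was 0.181 between 0 h and 2 h, -0.141 between 2 h and 6 h and -0.162 between 6 h and 12 h, and crossed numbers gave 1122 and 1026. The 132 genes by J5 score became 30 with dim genes left out, 62 beyond a score of 30, and 117 to 130 with 1 array left out. Of 243 named genes called, 170 kept the call under every alternative and 73 lost it under 1 or more, 38 of them only when an array was left out. Of 396 recomputed list counts, 66 moved by over 1.5 times, 50 with an array left out. Sizes of change depended on the background correction. Without it, the log2 changes of Il3, Lta and Bcl6 were 4.90, 0.98 and 0.59, beside 7.19, 2.4 and 1.66 with it. The uncorrected changes of these 3 genes lay below the bounds given for them. Quantile normalization forces the arrays to 1 distribution, 2 arrays per group limit the small changes, and levels near background are bounds.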
